A study of Mus musculus with 24 samples.

Results

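Ifebemtinib (IN10018) is a small-molecule inhibitor of focal adhesion kinase (FAK), the cytoplasmic tyrosine kinase encoded by *Ptk2*. The data described here are the 3 RNA-seq libraries of MS03 cells treated with 1 μM ifebemtinib for 24 hours and the 3 libraries of the same cells treated for 24 hours with the vehicle, DMSO, out of 24 libraries in all. All genes with enough reads were taken, which left 16070 of 49315 genes to be tested and 33245 with too few reads. MS03 is an immortalized mouse Schwann cell (SC) line that was derived from an *Nf2* flox/flox animal and made *Nf2*-/- by infection with Cre according to its description, and it is the line of every group, DMSO included. The remaining libraries came from MS03 cells given 1 μM defactinib, VS-4718 or GSK2256098, which are also FAK kinase inhibitors, or 1 of the degraders PROTAC FAK degrader 1 at 1 μM, GSK215 at 0.1 μM and BSJ-04-0146 at 0.1 μM, with 3 libraries each. The labels call the libraries biological replicates without naming separate cultures or days, so the *P* values measure the spread between these libraries. With 1 cell line and 1 vehicle group, the data describe MS03 cells in culture, and RNA per culture cannot separate fewer responding cells from less RNA per cell.

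FAK sits at focal adhesions, where clustered integrins bind the extracellular matrix, and carries signals from there to the RAS-ERK and PI3K-AKT pathways and to the actin cytoskeleton. In Schwann cells, integrin and laminin contact through FAK supports proliferation, spreading and myelination, and loss of *Nf2*, whose product merlin restrains growth at cell contacts, releases YAP and TEAD, which transcribe genes such as *Cyr61* and *Ctgf*. A pair of stress pathways also matter below. The hypoxia-inducible factors HIF-1α and HIF-2α are hydroxylated when oxygen is sufficient and then destroyed through the VHL ligase, and when they persist they raise genes for glucose uptake, glycolysis, pH control, angiogenesis and mitophagy. ATF4 is a transcription factor that is translated when eIF2α is phosphorylated, as in amino acid shortage or endoplasmic reticulum (ER) stress, and it raises genes for amino acid synthesis and import together with feedback and death regulators such as *Trib3*, *Ddit3* and *Chac1*.

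Total counts were 22952048, 27449516 and 25126532 with DMSO and 22326634, 21654444 and 22899052 with ifebemtinib. Expression is given as CPM, the counts per 1000000 of TMM-scaled library size. Replicate 2 of ifebemtinib stood apart from the other libraries of its group: the chi-square per degree of freedom of its counts was 6.17 and 6.90 against replicates 1 and 3, beside 1.96 between those and 2.05 to 2.67 between DMSO libraries. It held 122 CPM of replication-dependent histone transcripts, beside 69.7 and 65.3 CPM in the other treated libraries and 69.7 to 79.6 CPM with DMSO, and 53.3 CPM of *Rn7sk*, a non-polyadenylated small RNA, beside 12.6 and 12.1 CPM in the other treated libraries and 9.32, 32.0 and 13.8 CPM with DMSO. The leading counts below were therefore repeated without it. Of 19 SC and myelin markers, 14 had more than 10 counts in at least 1 of the 6 libraries. *Sox10*, the transcription factor that defines the lineage, had 436 to 539 counts per DMSO library and 457 to 522 per treated library, whereas *Mag* was at 0 in all 6 and *S100b*, *Egr2* and *Gfap* had at most 8 counts. The summed level of the SC markers was 169 to 176 CPM with DMSO and 172 to 174 CPM with ifebemtinib. Macrophage, endothelial, fibroblast, neuron and melanocyte markers summed to at most 7.47 CPM per list in any of the 6 libraries, and *Adgre1*, *Ptprc*, *Kdr*, *Tie1*, *Lum*, *Dpt*, *Rbfox3*, *Tyr* and *Mlana* were at 0 in all 6.

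Compared to DMSO, ifebemtinib raised 22 of 23 genes induced by hypoxia and 13 of 21 genes of the ATF4 response together with the cell cycle inhibitors *Cdkn1a* and *Ccng2*, and lowered the YAP target *Cyr61*, the matrix glycoprotein *Thbs1*, several integrins and *Met*, the receptor for hepatocyte growth factor. By edgeR's quasi-likelihood test, with *P* values adjusted over all genes tested and a threshold of 0.05, 2136 genes differed, or 13.3% of those tested, with 1035 higher (6.44%) and 1101 lower (6.85%). The changes were small. The median called log2 fold change was 0.22 among higher genes and −0.17 among lower genes, 77 genes rose and 29 fell by at least 1.5-fold, and 19 rose and 9 fell by at least 2-fold. All 3 treated libraries lay above all 3 DMSO libraries for 2435 genes (15.2%) and below them for 2549 (15.9%). Among genes with a named symbol, a mean of at least 5 CPM and groups that did not overlap, 879 rose and 1016 fell, and of these 21 rose and 1 fell by at least 1.5-fold. The number of genes called fell to 1395 without ifebemtinib replicate 3 and to 1380 without DMSO replicate 2. Without ifebemtinib replicate 2 it was 1824, with 956 higher (5.82%) and 868 lower (5.28%).

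**Figure D1:**
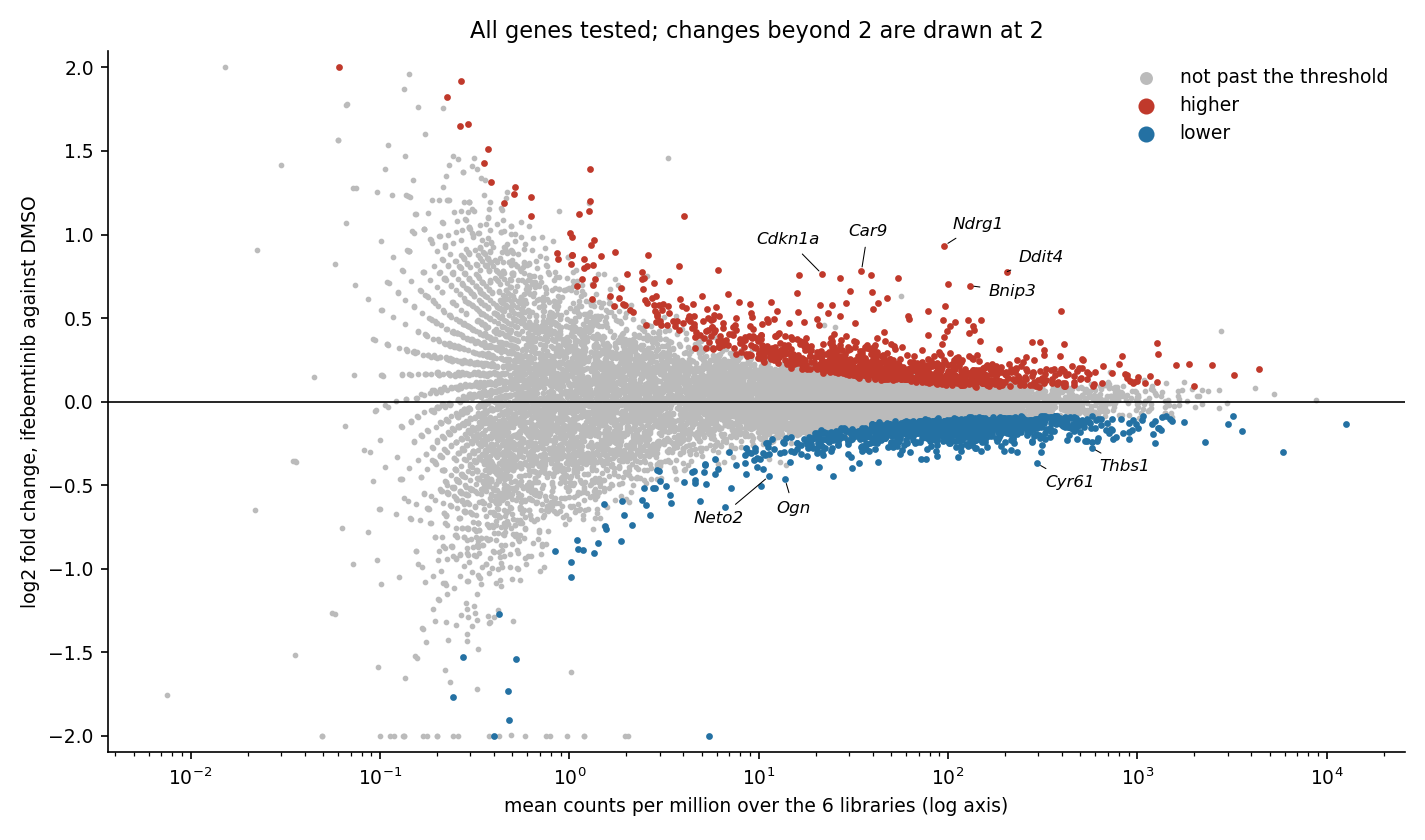
Log2 fold change of each gene tested, ifebemtinib against DMSO (vertical axis, clipped at ±2), over its mean expression in CPM (horizontal log axis), with genes past the adjusted threshold coloured and lead genes named. The 1035 higher and 1101 lower genes form a narrow band around a median log2 fold change of 0.0035 over all genes, above which *Ndrg1*, *Ddit4* and *Bnip3* stand out.

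Genes induced by hypoxia had the highest share of members called among the lists counted. Of 23 HIF targets, all of which were tested, 22 rose, beside 6.44% of all genes, and every one had its 3 treated libraries above its 3 DMSO libraries, beside 15.2% of all genes. Their log2 fold changes ran from 0.09 to 0.93 with a median of 0.36. *Pfkfb3*, a kinase that makes the glycolytic activator fructose-2,6-bisphosphate, was the member that did not pass, with a log2 fold change of 0.12 ± 0.051 (SE) and an adjusted *P* of 0.106. Without ifebemtinib replicate 2, 21 of 23 were called.

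The largest increase of any gene named by rule was that of *Ndrg1* (chromosome 15, 66929318 to 66969640, minus strand), a stress-induced gene of Schwann and tumor cells whose loss in people causes a demyelinating neuropathy. It stood at 65.4, 66.5 and 65.4 CPM with DMSO and at 126, 123 and 128 CPM with ifebemtinib. The groups did not overlap, and the means were 65.8 ± 0.599 and 126 ± 3.00 CPM (SD, n = 3 libraries each). The log2 fold change was 0.93 ± 0.038 (SE), with an adjusted *P* of 2.15e-20 by edgeR.

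*Bnip3*, a mitochondrial outer membrane protein that promotes mitophagy, had 105, 100.2 and 93.9 CPM with DMSO and 164, 158 and 162 CPM with ifebemtinib. *Pdk1*, the kinase that shuts pyruvate out of the citric acid cycle by inactivating pyruvate dehydrogenase, had 78.2, 76.0 and 73.5 CPM with DMSO and 125, 119.7 and 126 CPM with the drug. *Car9*, a carbonic anhydrase that exports acid at the cell surface, had 27.4, 25.2 and 24.5 CPM beside 45.9, 41.4 and 45.0 CPM. In each of these 3 genes the lowest treated library was well above the highest DMSO library, and the log2 fold changes were 0.69 ± 0.037, 0.70 ± 0.042 and 0.78 ± 0.058 (SE), with adjusted *P* of 5.78e-17, 1.57e-15 and 8.19e-13 by edgeR. *Ankrd37*, an ankyrin repeat protein used as a hypoxia marker, rose from 13.6, 11.6 and 11.4 CPM to 21.0, 18.5 and 22.2 CPM, a log2 fold change of 0.76 ± 0.094 (SE, adjusted *P* = 3.54e-07).

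The other members fell into 4 roles. Regulators of the pathway itself rose, with *Egln1* at 116, 113 and 113 CPM with DMSO and 157, 155 and 156 CPM with ifebemtinib. *Egln1* and *Egln3* encode the prolyl hydroxylases that mark HIF for destruction and are themselves HIF targets, and their log2 fold changes were 0.45 ± 0.034 and 0.38 ± 0.047 (SE). The transcriptional repressors *Bhlhe40* and *Mxi1* and the histone demethylase *Kdm3a* had log2 fold changes of 0.49, 0.51 and 0.16. Secreted factors rose as well: *Vegfa*, the main endothelial growth factor, went from 119, 114 and 118 CPM to 160, 152 and 160 CPM (log2 fold change 0.43 ± 0.039, adjusted *P* = 1.96e-10), and the vasodilator peptide gene *Adm* had a log2 fold change of 0.31. The collagen prolyl hydroxylases *P4ha1* and *P4ha2* had values of 0.10 and 0.36, and *Higd1a*, which protects the respiratory chain, 0.40.

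Glucose handling formed the last role. *Slc2a1*, the basal glucose transporter, had 270.1, 267 and 264 CPM with DMSO and 349, 335 and 344 CPM with ifebemtinib, a log2 fold change of 0.36 ± 0.037 (SE, adjusted *P* = 4.05e-09). The enzymes *Hk2*, *Aldoa*, *Pgk1*, *Ldha* and *Eno1* had log2 fold changes of 0.16, 0.22, 0.23, 0.22 and 0.09, and *Pfkfb4*, a relative of *Pfkfb3*, one of 0.26 (adjusted *P* = 0.0355). The increases in this role were thus smaller than those of *Ndrg1*, *Car9* or *Bnip3*. Several of these enzymes have processed pseudogenes, and how reads shared with them were assigned is not given in the sources used here. The genes for the HIF subunits did not pass the test: *Hif1a* had 180.2, 181 and 184 CPM with DMSO and 175, 182 and 169.6 CPM with ifebemtinib (log2 fold change −0.05, adjusted *P* = 0.407). HIF is controlled mainly at the protein level, which these libraries do not measure.

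**Figure D2:**
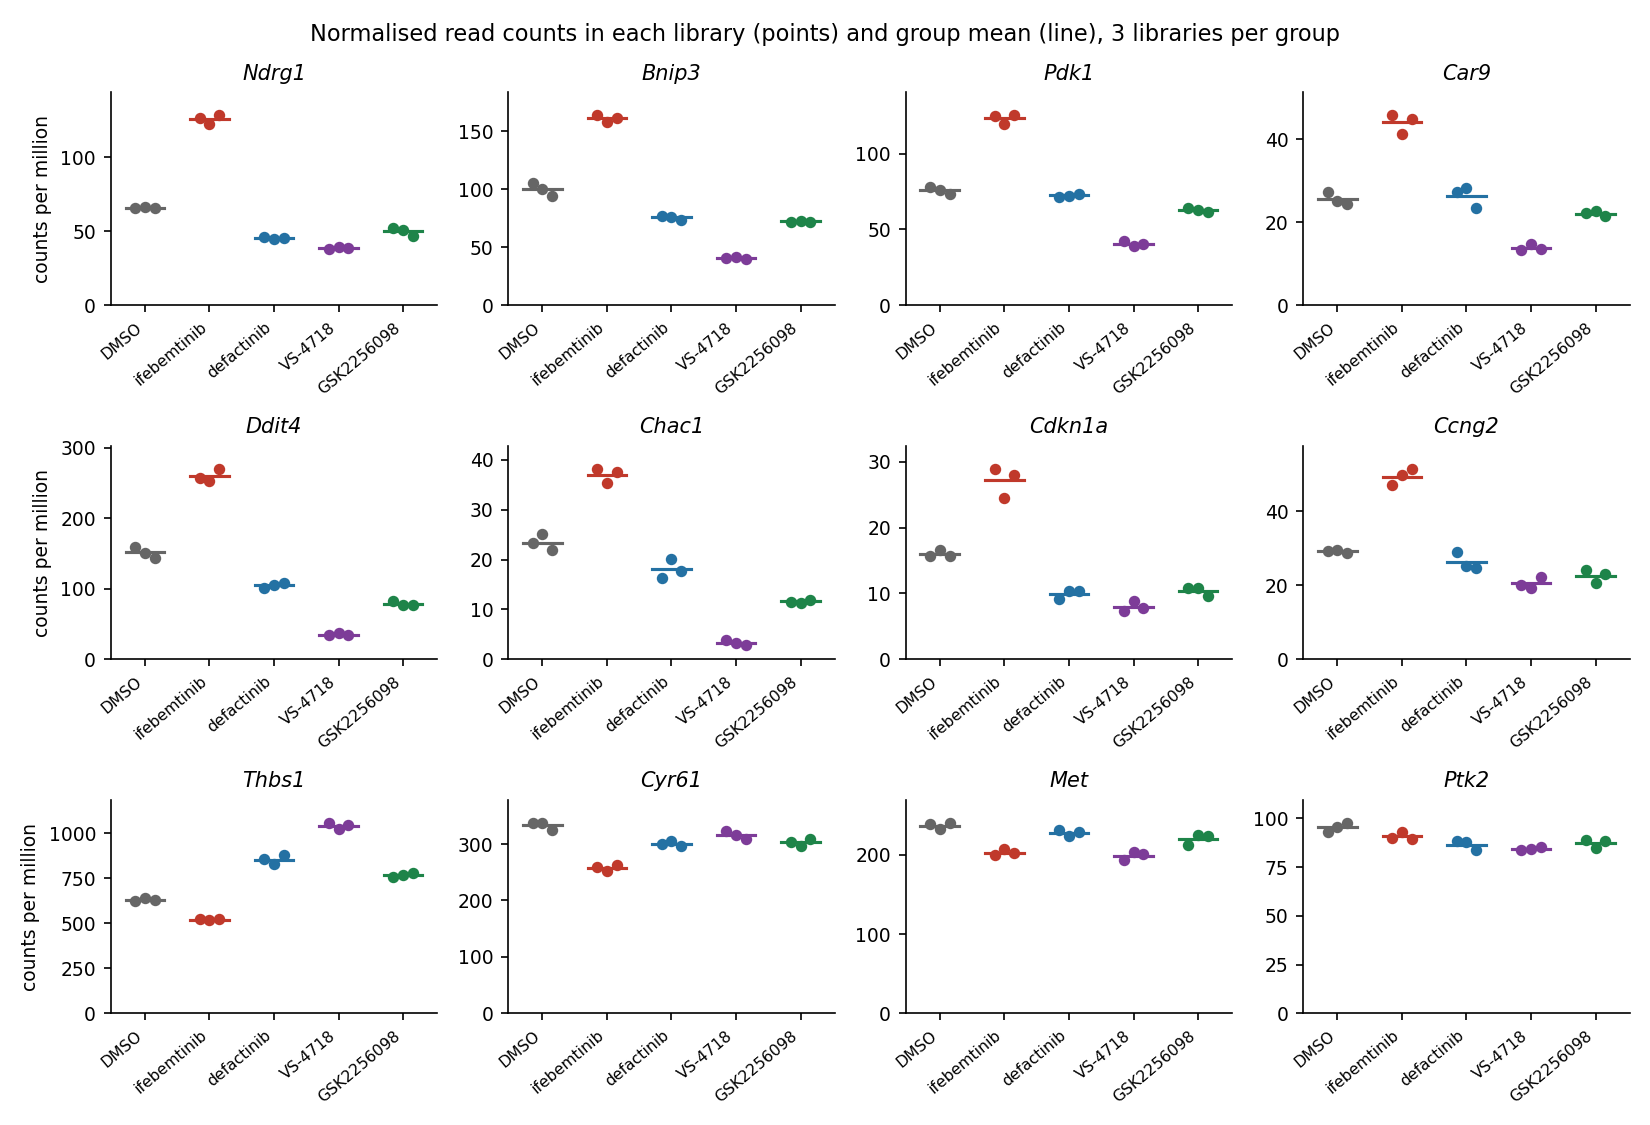
CPM per library (vertical axes, from 0) of 12 genes in the DMSO, ifebemtinib, defactinib, VS-4718 and GSK2256098 groups, with 1 point per library and a line at each group mean. For *Ndrg1*, *Bnip3*, *Pdk1*, *Ddit4* and *Chac1* the 3 ifebemtinib libraries lie above every DMSO library (*Ndrg1* 123 to 128 CPM beside 65.4 to 66.5 CPM), for *Cyr61* and *Thbs1* they lie below, and for *Ptk2* the groups overlap.

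Sequences at the start of 4 of these genes are shown because they carry the short motifs that the pathways' factors bind. They are RefSeq sequences (GRCm38.p6) from the gene's own strand, 5′ to 3′, with a motif match in capitals. For *Bnip3*, *Ddit4* and *Chac1* they end at the base before the start of the gene in GENCODE M21. For *Car9* GENCODE M21 starts the gene 60 bases before the RefSeq start, so the stretch shown lies upstream of the RefSeq start and inside the GENCODE gene. For *Bnip3*, *Car9* and *Ddit4* the capitals mark matches to ACGTG, the core of the hypoxia response element, on either strand. In *Bnip3* the match is CACGTG, which reads ACGTG on both strands. For *Chac1* they mark a match to TGATGNAA, the element bound by ATF4 with a C/EBP partner, here on the reverse strand.
Bnip3 (chr7:138909520-138909756, minus strand): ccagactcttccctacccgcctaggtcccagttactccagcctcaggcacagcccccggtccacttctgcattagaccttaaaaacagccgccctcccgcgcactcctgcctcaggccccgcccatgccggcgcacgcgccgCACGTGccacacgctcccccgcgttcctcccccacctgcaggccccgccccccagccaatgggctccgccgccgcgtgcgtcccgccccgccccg
Car9 (chr4:43506996-43507024, plus strand): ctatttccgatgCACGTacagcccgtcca
Ddit4 (chr10:59951835-59952020, minus strand): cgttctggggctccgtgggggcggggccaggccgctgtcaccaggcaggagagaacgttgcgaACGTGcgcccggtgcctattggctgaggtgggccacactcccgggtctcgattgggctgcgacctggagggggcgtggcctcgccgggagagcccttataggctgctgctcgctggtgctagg
Chac1 (chr2:119350992-119351228, plus strand): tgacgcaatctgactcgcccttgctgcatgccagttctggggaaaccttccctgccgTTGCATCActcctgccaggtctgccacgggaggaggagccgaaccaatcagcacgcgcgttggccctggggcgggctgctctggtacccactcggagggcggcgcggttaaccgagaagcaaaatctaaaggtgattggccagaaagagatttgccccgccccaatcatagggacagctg
Searched in the 250 bases before the RefSeq start, on both strands, ACGTG was in 16.6% of 32851 windows, in 12 of 21 windows of HIF targets (57.1%) and in 5 of 19 windows of the ATF4 response (26.3%). TGATGNAA was in 3.45% of all windows and in 5 of 19 windows of the ATF4 response (26.3%). The *Pdk1* window (chr2:71872974-71873223) held no ACGTG. A match describes the letters only.

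The ATF4 response rose in part. Of its 21 genes, all tested, 13 were higher and 1 was lower, beside 6.44% and 6.85% of all genes, and 16 had their 3 treated libraries above all DMSO libraries, beside 15.2% of all genes. The median log2 fold change was 0.25. The highest fold changes were those of the regulators *Ddit4*, *Chac1*, *Trib3* and *Ddit3*, and 5 of the enzymes of serine and one-carbon metabolism did not pass, whereas another, *Aldh1l2*, rose. Without ifebemtinib replicate 2, 12 were higher and 1 lower.

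*Ddit4* (chromosome 10, 59949669 to 59951834, minus strand) encodes REDD1, an inhibitor of mTORC1 that both ATF4 and HIF can induce. It stood at 159.9, 151 and 144 CPM with DMSO and 257, 252 and 270.3 CPM with ifebemtinib, with means of 152 ± 8.04 and 260 ± 9.35 CPM (SD, n = 3 libraries each). Its log2 fold change was 0.78 ± 0.042 (SE, adjusted *P* = 6.61e-17 by edgeR). *Chac1*, a glutathione-degrading enzyme, had 23.3, 25.1 and 21.9 CPM beside 38.2, 35.5 and 37.5 CPM (log2 fold change 0.66 ± 0.064, adjusted *P* = 8.22e-10). *Trib3*, a pseudokinase that feeds back on ATF4 and AKT, had 37.3, 33.5 and 32.0 CPM beside 50.5, 50.1 and 53.7 CPM (log2 fold change 0.59 ± 0.052, adjusted *P* = 6.31e-11). In all 3 the groups were apart. *Ddit3*, which encodes the death-promoting factor CHOP, had 21.0, 18.8 and 19.2 CPM with DMSO and 29.2, 29.0 and 29.9 CPM with ifebemtinib (log2 fold change 0.58 ± 0.065).

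Further regulators rose by less. The stress factor *Nupr1* had a log2 fold change of 0.49 ± 0.066 (SE), the lipoprotein receptor *Vldlr* 0.39 ± 0.036, the leucine sensor *Sesn2* 0.33 ± 0.057 and the secreted hormone *Stc2* 0.16 ± 0.047. *Atf4* itself had 309.8, 303 and 297 CPM with DMSO and 334, 328 and 336 CPM with ifebemtinib, a log2 fold change of 0.14 ± 0.031 (adjusted *P* = 0.00242). Among the metabolic members, *Slc7a11*, the cystine importer, rose from 31.3, 29.8 and 29.7 CPM to 34.9, 36.9 and 37.6 CPM (log2 fold change 0.27 ± 0.053). The mitochondrial enzymes *Aldh1l2*, of one-carbon metabolism, and *Pck2* had log2 fold changes of 0.27 and 0.25, and *Asns*, asparagine synthetase, one of 0.12.

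Of the serine and one-carbon enzymes, *Psat1*, *Phgdh*, *Psph*, *Shmt2* and *Mthfd2* did not pass the test, with log2 fold changes of 0.07, −0.01, 0.08, 0.02 and 0.07, and neither did the amino acid transporter chain *Slc3a2*, at 0.01. Its partner *Slc7a5*, the leucine importer, fell from 459, 448 and 471 CPM to 408, 405 and 426 CPM, a log2 fold change of −0.15 ± 0.033 (adjusted *P* = 0.00128). *Cebpb*, a dimer partner of ATF4, was too variable to be called, at 16.0, 22.1 and 26.2 CPM with DMSO and 40.3, 26.99 and 21.1 CPM with ifebemtinib (log2 fold change 0.45 ± 0.163, adjusted *P* = 0.0619).

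Outside these lists, *Cdkn1a* and *Ccng2* were among the 12 largest increases by rule. *Cdkn1a* (chromosome 17, 29090976 to 29100727, plus strand) encodes the CDK inhibitor p21 and stood at 15.7, 16.6 and 15.7 CPM with DMSO and at 28.9, 24.5 and 28.1 CPM with ifebemtinib (log2 fold change 0.76 ± 0.074, adjusted *P* = 1.07e-09). *Ccng2*, an atypical cyclin induced by FOXO factors in resting cells, went from 29.2, 29.6 and 28.8 CPM to 47.0, 49.7 and 51.4 CPM (log2 fold change 0.76 ± 0.058, adjusted *P* = 2.68e-12). Neither gene had a treated library within the DMSO range. *Gadd45a*, a growth-arrest gene, had 17.1, 17.0 and 16.6 CPM beside 25.2, 22.8 and 27.8 CPM (log2 fold change 0.58 ± 0.078).

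The lists that hold these genes moved in small numbers. Of 14 p53 targets, 3 rose and 2 fell (21.4% and 14.3%, beside 6.44% and 6.85% of all genes): *Cdkn1a*, the death genes *Bbc3* (log2 fold change 0.50 ± 0.106, adjusted *P* = 0.000957) and *Bax* (0.16) were higher, and *Zmat3* and *Aen* were lower at −0.20 and −0.18. Of 10 genes that FOXO factors induce or that feed back on PI3K, 4 rose, beside 6.44% of all genes. Beside *Ccng2* these were *Txnip*, which restrains glucose uptake (0.33 ± 0.053), *Fbxo32*, a ubiquitin ligase of atrophy (0.24), and *Foxo3* itself, from 80.4, 81.3 and 78.8 CPM to 93.0, 97.0 and 91.1 CPM (0.22 ± 0.041). The call of *Fbxo32* was lost without ifebemtinib replicate 2 (adjusted *P* = 0.179) and without DMSO replicate 3 (adjusted *P* = 0.179).

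Some genes downstream of ERK rose and most did not pass the test. Of 16 tested genes of ERK output, 5 were higher (31.3%) and 11 did not pass, and of 13 immediate-early genes, 5 were higher (38.5%) and 8 did not pass, beside 6.44% of all genes higher. *Ier3*, an ERK-induced survival gene, had 113, 115 and 105 CPM with DMSO and 152, 139.7 and 149 CPM with ifebemtinib (log2 fold change 0.41 ± 0.043, adjusted *P* = 5.55e-09). *Dusp4*, a phosphatase that switches ERK off, had 40.4, 40.3 and 41.0 CPM beside 47.8, 47.2 and 52.4 CPM (0.28 ± 0.052, adjusted *P* = 0.000297). The AP-1 genes *Atf3*, *Junb*, *Fosl2* and *Jun* had log2 fold changes of 0.39, 0.22, 0.21 and 0.16. Other readouts of the pathway did not pass, among them *Dusp6*, *Spry2*, *Spry4* and *Ccnd1* at 0.09, 0.04, 0.01 and −0.06. The calls of *Fosl1* (0.13) and *Etv5* (0.14) were lost when single libraries were left out, with the highest adjusted *P* at 0.183 without ifebemtinib replicate 3 and 0.191 without ifebemtinib replicate 1.

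Among the 12 largest increases by rule were 3 genes of no list. *Arrb1*, which encodes the receptor adaptor β-arrestin 1, went from 41.4, 41.1 and 39.4 CPM to 67.1, 66.5 and 70.2 CPM (log2 fold change 0.74 ± 0.043, adjusted *P* = 6.14e-16). *Mpp2*, a membrane scaffold, had 20.3, 19.6 and 20.2 CPM beside 32.6, 34.2 and 33.7 CPM (0.74 ± 0.064), and *Mettl7b*, a thiol methyltransferase, had 4.52, 4.29 and 4.57 CPM beside 7.25, 7.53 and 8.35 CPM (0.79 ± 0.125). The replicates of each group lay close together in all 3 genes.

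**Figure D3:**
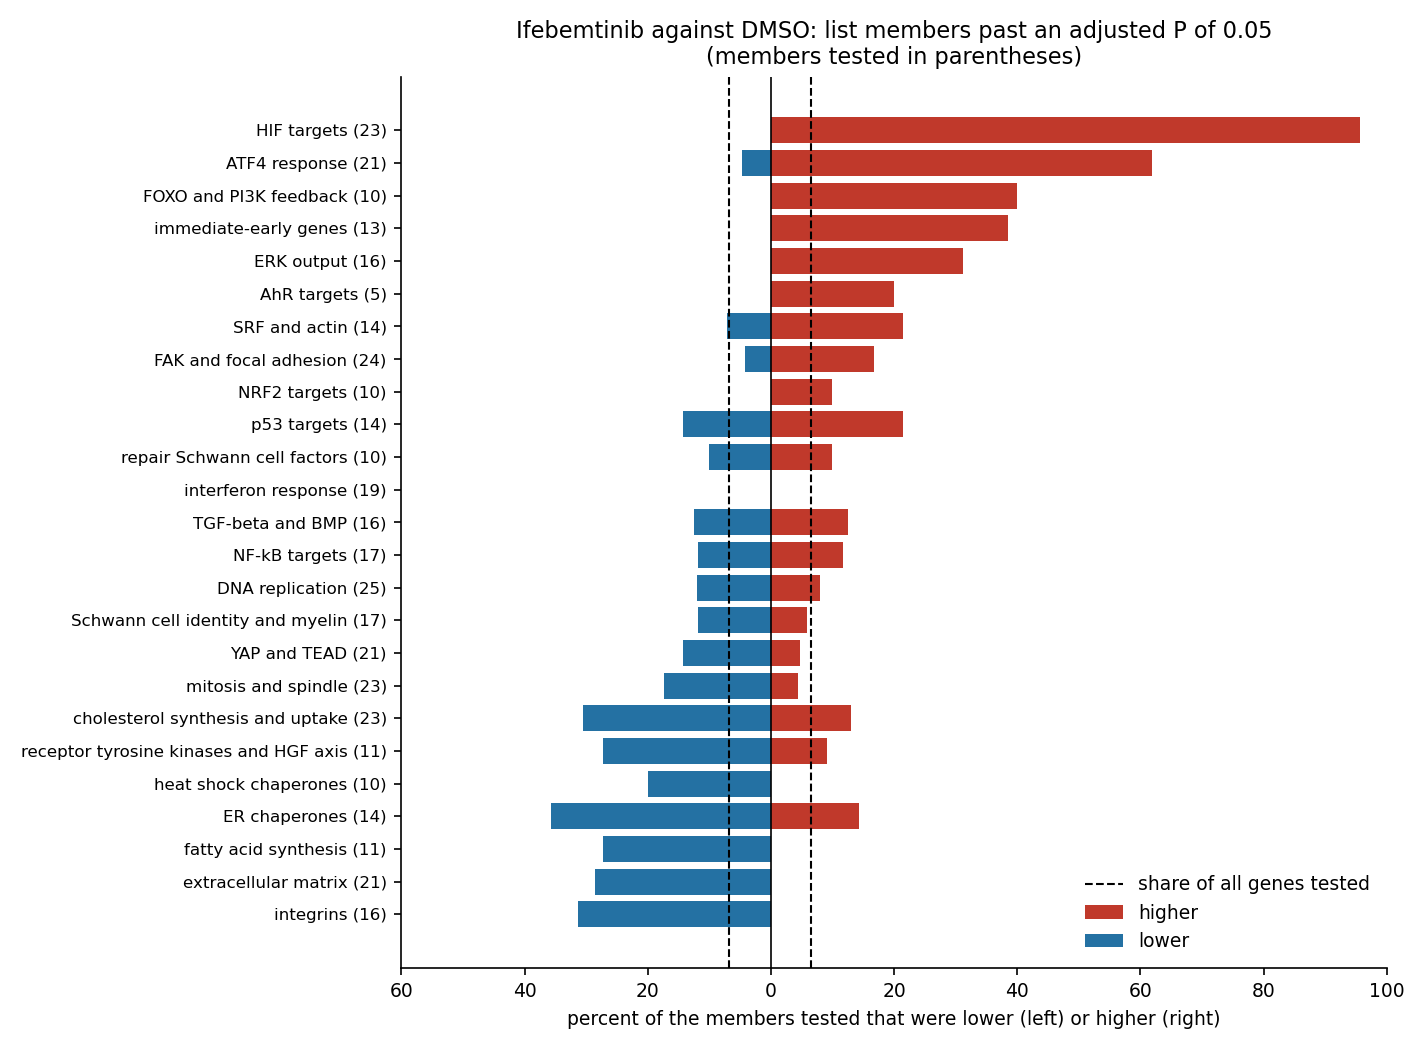
Share of the tested members of each gene list that were higher (right) or lower (left) with ifebemtinib than with DMSO, in percent, for the lists not chosen after their values were seen that had at least 5 members tested, with dashed lines at the shares of all genes (6.44% and 6.85%). HIF targets (22 of 23 higher) and the ATF4 response (13 of 21 higher) reach farthest to the right, and ER chaperones (5 of 14 lower), integrins (5 of 16 lower) and cholesterol genes (7 of 23 lower) reach farthest to the left.

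*Cyr61* (chromosome 3, 145646976 to 145649981, minus strand), a matrix-bound integrin ligand transcribed by YAP and TEAD, had 337, 338 and 325 CPM with DMSO and 258, 251 and 263 CPM with ifebemtinib. Its log2 fold change was −0.37 ± 0.031 (SE), with an adjusted *P* of 1.76e-11. *Ctgf*, its close relative, had 11.8, 10.9 and 11.2 CPM beside 9.74, 8.19 and 8.75 CPM (−0.35 ± 0.097, adjusted *P* = 0.0131), a call that was lost without ifebemtinib replicate 2 (adjusted *P* = 0.0745). The groups did not overlap in either gene. Of 21 tested YAP and TEAD targets, 3 fell and 1 rose, beside 6.85% and 6.44% of all genes. The receptor kinase *Axl* was the other that fell (−0.14), *Gadd45a* was the one that rose, and targets such as *Ankrd1*, *Amotl2* and *Lats2* did not pass, at −0.02, −0.08 and −0.07. Without ifebemtinib replicate 2, 2 fell and 1 rose.

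Integrins were lower in part. Of 16 tested, 5 fell (31.3%, beside 6.85% of all genes) and 11 did not pass the test, and the median log2 fold change was −0.07. *Itga5*, the α chain of the fibronectin receptor, had 101, 98.3 and 100.04 CPM with DMSO and 88.0, 85.0 and 87.9 CPM with ifebemtinib (−0.20 ± 0.035, adjusted *P* = 0.000119). *Itgb1*, the β chain shared by most of these receptors, had 954, 924 and 968 CPM beside 879, 873 and 856 CPM (−0.13 ± 0.033, adjusted *P* = 0.0072). *Itga6*, the laminin receptor chain, *Itga3* and *Itgav* had log2 fold changes of −0.18, −0.11 and −0.11. Treated libraries were below all DMSO libraries in *Itga5*, *Itgb1*, *Itga6* and *Itga3*, and the call of *Itga3* was lost without DMSO replicate 2 (adjusted *P* = 0.0743).

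Matrix genes were also lower in part. Of 21 tested, 6 fell (28.6%, beside 6.85% of all genes) and 15 did not pass, with a median of −0.05. *Thbs1* (chromosome 2, 118111876 to 118127133, plus strand), thrombospondin-1, had 623, 641 and 628 CPM with DMSO and 524, 517 and 521 CPM with ifebemtinib, with means of 631 ± 9.43 and 520 ± 3.43 CPM (SD, n = 3 libraries each). Its log2 fold change was −0.28 ± 0.037 (SE, adjusted *P* = 1.37e-06). The collagen genes *Col1a2* and *Col5a2* fell by 0.16 and 0.12 on the log2 scale, the laminin chains *Lamc1* and *Lamb1* by 0.15 and 0.11, and *Sparc* by 0.12. *Fn1*, *Col1a1* and *Tnc* did not pass, at −0.04, 0.00 and −0.08. Without ifebemtinib replicate 2, 3 integrins and 5 matrix genes were called lower, beside 5.28% of all genes.

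Most components of the focal adhesion itself did not pass the test. Of 24 tested, 4 rose and 1 fell (16.7% and 4.17%, beside 6.44% and 6.85% of all genes). *Ptk2*, the target of the drug, had 92.9, 95.4 and 97.7 CPM with DMSO and 90.1, 92.9 and 89.2 CPM with ifebemtinib. The groups overlapped, and the log2 fold change was −0.07 with a 95% interval of −0.15 to 0.00 and an adjusted *P* of 0.183. *Vcl*, vinculin, which links integrins to actin, fell from 162, 169 and 159 CPM to 137, 140.5 and 139.7 CPM (−0.23 ± 0.036, adjusted *P* = 1.76e-05). *Tns1*, *Fermt2*, *Trip6* and *Pxn* had log2 fold changes of 0.18, 0.16, 0.14 and 0.12, and the calls of *Tns1* and *Trip6* were lost without ifebemtinib replicate 3 (adjusted *P* of 0.0927 and 0.220). Of 14 tested SRF and actin genes, *Cnn2* (0.18), *Fhl2* (0.29) and *Acta1* rose and the actin cross-linker *Flna* fell (−0.12), with *Acta1* at no more than 1.85 CPM in any of the 6 libraries. The calls of *Acta1* and *Fhl2* were lost when single libraries were left out (highest adjusted *P* of 0.174 without ifebemtinib replicate 2 and 0.155 without ifebemtinib replicate 3).

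*Met* (chromosome 6, 17463800 to 17573980, plus strand) encodes the receptor tyrosine kinase for hepatocyte growth factor. It had 239, 232 and 241 CPM with DMSO and 199.5, 207 and 202 CPM with ifebemtinib, so that no treated library reached the DMSO range. The means were 237 ± 4.36 and 203 ± 3.80 CPM (SD, n = 3 libraries each) and the log2 fold change was −0.23 ± 0.033 (SE, adjusted *P* = 5.44e-06). Of the 11 tested members of the receptor tyrosine kinase and HGF list, 3 fell and 1 rose (27.3% and 9.09%, beside 6.85% and 6.44% of all genes): *Tyro3* and *Ddr2* fell by 0.13 and 0.12 on the log2 scale, and *Mertk*, which clears apoptotic cells, rose by 0.25. The call of *Tyro3* was lost without DMSO replicate 3 (adjusted *P* = 0.142) and that of *Mertk* without it as well (adjusted *P* = 0.0689). Without ifebemtinib replicate 2, 2 members fell and 0 rose, beside 5.28% and 5.82% of all genes, so the call of *Mertk* was lost there too. *Hgf*, *Hgfac*, *Spint1*, *Spint2*, *Egfr* and *Ret* had too few reads to be tested. *Csf1*, the macrophage growth factor, fell from 461, 458 and 463 CPM to 391, 395 and 391 CPM (−0.23, adjusted *P* = 3.04e-07).

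Lipid synthesis genes moved both ways. Of 23 tested genes of cholesterol synthesis and uptake, 7 fell and 3 rose (30.4% and 13.0%, beside 6.85% and 6.44% of all genes). The later enzymes of synthesis *Hsd17b7*, *Ebp*, *Sc5d*, *Dhcr7* and *Cyp51* fell by 0.22, 0.20, 0.18, 0.18 and 0.14 on the log2 scale, whereas *Mvd*, *Pmvk* and *Lss* rose by 0.29, 0.24 and 0.12. *Elovl6*, an elongase of fatty acids, went from 234, 237 and 238 CPM to 190.4, 199 and 189 CPM (−0.29 ± 0.031, adjusted *P* = 1.11e-08), and *Fasn* and *Acaca*, which catalyse fatty acid synthesis and its first step, both had a log2 fold change of −0.17. These were 3 of 11 fatty acid genes, and the other 8 did not pass, beside 6.85% of all genes lower.

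Of the protein-folding genes some fell and some rose. Of 14 tested genes of the ER, the chaperones and co-chaperones *Hyou1*, *Dnajc3*, *Hspa5*, *Calr* and *Creld2* fell by 0.21, 0.16, 0.16, 0.16 and 0.14 on the log2 scale, and *Xbp1*, the transcription factor of the unfolded protein response, and *Herpud1*, which assists ER-associated degradation, rose by 0.31 and 0.27. These were 35.7% lower and 14.3% higher, beside 6.85% and 6.44% of all genes. *Hspa5* (BiP) is the usual marker of ER stress. Of 10 heat shock chaperones, 2 fell (20.0%), with *Hsph1* at 325, 324 and 322 CPM with DMSO and 285, 281 and 278 CPM with ifebemtinib (−0.20 ± 0.030, adjusted *P* = 7.65e-06) and the mitochondrial chaperonin *Hspd1* at −0.12. *Hmox1*, heme oxygenase 1, was the 1 of 10 NRF2 targets that rose (0.23, adjusted *P* = 0.0034), and its call was lost without ifebemtinib replicate 3 (adjusted *P* = 0.0520).

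Most proliferation genes did not pass the test. *Mki67*, the proliferation marker Ki-67, fell from 672, 677 and 648 CPM to 556, 584 and 557 CPM (−0.23 ± 0.036, adjusted *P* = 1.54e-05). It was 1 of 4 of 23 mitosis genes that fell (17.4%, beside 6.85% of all genes), with *Cenpe*, *Kif23* and *Anln* at −0.15, −0.13 and −0.09, and *Ccnb2* rose by 0.13. Of 25 DNA replication genes, 3 fell and 2 rose (12.0% and 8.00%), shares near those of all genes (6.85% and 6.44%): *Rrm2*, a subunit of ribonucleotide reductase, the helicase subunit *Mcm4* and the cyclin *Ccne1* were at −0.15, −0.12 and −0.15, and *E2f1* and *Gins4* at 0.15 and 0.14. Single libraries decided the calls of *Cenpe* and *Kif23* (adjusted *P* of 0.0821 and 0.0549 without ifebemtinib replicate 3), of *Ccnb2* and *E2f1* (0.0925 and 0.160 without ifebemtinib replicate 1) and of *Ccne1* (0.133 without DMSO replicate 3). *Mki67*, *Rrm2* and *Mcm4* kept their calls under each of 12 alternatives.

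The Schwann cell program was close to its DMSO level. Of 17 tested markers, 14 did not pass. *Sox10* had 19.7, 20.3 and 20.3 CPM with DMSO and 22.7, 21.6 and 23.5 CPM with ifebemtinib, so that the groups were apart, and the log2 fold change of 0.17 ± 0.075 did not pass (adjusted *P* = 0.132). *Mbp*, myelin basic protein, rose from 15.9, 16.1 and 14.3 CPM to 17.9, 20.3 and 20.6 CPM (0.35 ± 0.064, adjusted *P* = 0.00022). *Ncam1*, a marker of non-myelinating cells, fell by 0.15 on the log2 scale, a call that was lost when any library other than DMSO replicate 1 was left out (adjusted *P* of up to 0.109). *Nf2*, at 178 to 184 CPM with DMSO and 176 to 184 CPM with ifebemtinib, did not differ by more than its spread (log2 fold change 0.00), and counts per gene do not show whether its exons are deleted. Among the trophic and repair factors, the cytokine gene *Lif* rose by 0.22.

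The 12 largest decreases by rule were otherwise genes of no list. *mt-Tf*, the mitochondrial transfer RNA for phenylalanine, had 8.32, 8.27 and 7.54 CPM with DMSO and 4.85, 5.21 and 5.50 CPM with ifebemtinib (log2 fold change −0.63 ± 0.133, adjusted *P* = 0.000912), and short RNAs of this kind are captured unevenly by a poly(A) protocol. *Ogn*, the matrix proteoglycan osteoglycin, had 16.1, 15.8 and 16.1 CPM beside 10.4, 12.4 and 12.0 CPM (−0.47 ± 0.102). *Neto2*, *Kcnq5*, *Gprin3*, the hyaluronan synthase *Has2*, *Crybg3*, *Bche*, *Prl2c2*, *Celf3* and *Shroom2* had log2 fold changes from −0.45 to −0.37. *Prl2c2* has near-identical paralogs, so its value is uncertain. The calls of *Kcnq5*, *Gprin3*, *Has2*, *Crybg3*, *Celf3* and *Shroom2* were lost when single libraries were left out, and the highest adjusted *P* was 0.243, for *Has2* without ifebemtinib replicate 3.

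In a further pair of lists as many genes rose as fell, 11.8% each way among NF-kB targets and 12.5% each way among genes of TGF-beta and BMP signalling, beside 6.44% and 6.85% of all genes. Of 17 tested NF-kB targets, *Tnfaip2* and *Relb* rose by 0.30 and 0.28 on the log2 scale, and *Csf1* and the chemokine *Ccl2* fell by 0.23 and 0.18. Of 16 genes of TGF-beta and BMP signalling, *Id2* and *Ltbp2* rose by 0.36 and 0.33, and the receptor *Tgfbr1* and *Ltbp1* fell by 0.28 and 0.14. Of these, *Tnfaip2*, *Csf1* and *Ltbp1* kept their calls under each of 12 alternatives. *Relb*, *Ccl2*, *Id2*, *Ltbp2* and *Tgfbr1* did not, with highest adjusted *P* of 0.177 (without DMSO replicate 1), 0.158 (without ifebemtinib replicate 1), 0.201 (without DMSO replicate 2), 0.146 (without ifebemtinib replicate 3) and 0.253 (without DMSO replicate 2).

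Whether ifebemtinib differed from the other FAK kinase inhibitors was tested directly at the same dose and time, in 3 pairs. At least 22 of 23 HIF targets were higher with ifebemtinib than with each of the other inhibitors. At least 16 of 21 matrix genes, 9 of 17 SC markers and 7 of 16 integrins were lower. In edgeR, 5548 genes (34.5%) differed between ifebemtinib and defactinib, 6567 (40.9%) between ifebemtinib and VS-4718 and 3366 (20.9%) between ifebemtinib and GSK2256098. All comparisons with DMSO share the same 3 DMSO libraries, so their values are set side by side only. The structural differences between the compounds are not described here. Libraries of other groups stood apart in the way of ifebemtinib replicate 2, with 93.6, 113 and 108 CPM of histone transcripts and 37.6, 78.0 and 81.0 CPM of *Rn7sk* in VS-4718 replicate 2, GSK2256098 replicate 1 and PROTAC FAK degrader 1 replicate 3. Without these 4 libraries, which were chosen after the data were seen, 22 of 23 HIF targets were higher with ifebemtinib than with each of the 3 inhibitors, beside 16.5%, 16.0% and 7.42% of all genes with defactinib, VS-4718 and GSK2256098. In the same order, 17, 16 and 16 of 21 matrix genes, 12, 11 and 7 of 17 SC markers and 11, 9 and 7 of 16 integrins were lower, beside 14.7%, 16.6% and 8.45% of all genes. Against DMSO, 22 HIF targets and 13 ATF4 genes were then higher, beside 5.91% of all genes, and 5 matrix genes and 3 integrins lower, beside 5.33%.

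Of the 23 HIF targets, 22 were higher with ifebemtinib than with defactinib, 23 higher than with VS-4718 and 22 higher than with GSK2256098, beside 17.9%, 19.6% and 9.78% of all genes. The median differences on the log2 scale were 0.49, 0.79 and 0.55. Against DMSO, the same genes were lower in 14 of 23 cases with defactinib (11.0% of all genes lower), 21 with VS-4718 (18.9%) and 19 with GSK2256098 (6.09%), and *P4ha2* was the 1 that was higher, with defactinib. *Ndrg1*, which had a log2 fold change of 0.93 against DMSO with ifebemtinib, had values of −0.54, −0.77 and −0.40 with defactinib, VS-4718 and GSK2256098, and *Bnip3*, at 0.69 with ifebemtinib, had −0.40, −1.30 and −0.46. The direct differences for *Ndrg1* were 1.47, 1.70 and 1.34, the largest adjusted *P* being 1.1e-25. *Pfkfb4* was the member that did not pass the test between ifebemtinib and defactinib (0.21, 95% interval 0.02 to 0.39, adjusted *P* = 0.0618) or GSK2256098 (0.12, 95% interval −0.06 to 0.30, adjusted *P* = 0.366). The intervals are not adjusted for the number of genes, and that for defactinib left out 0.

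**Figure D4:**
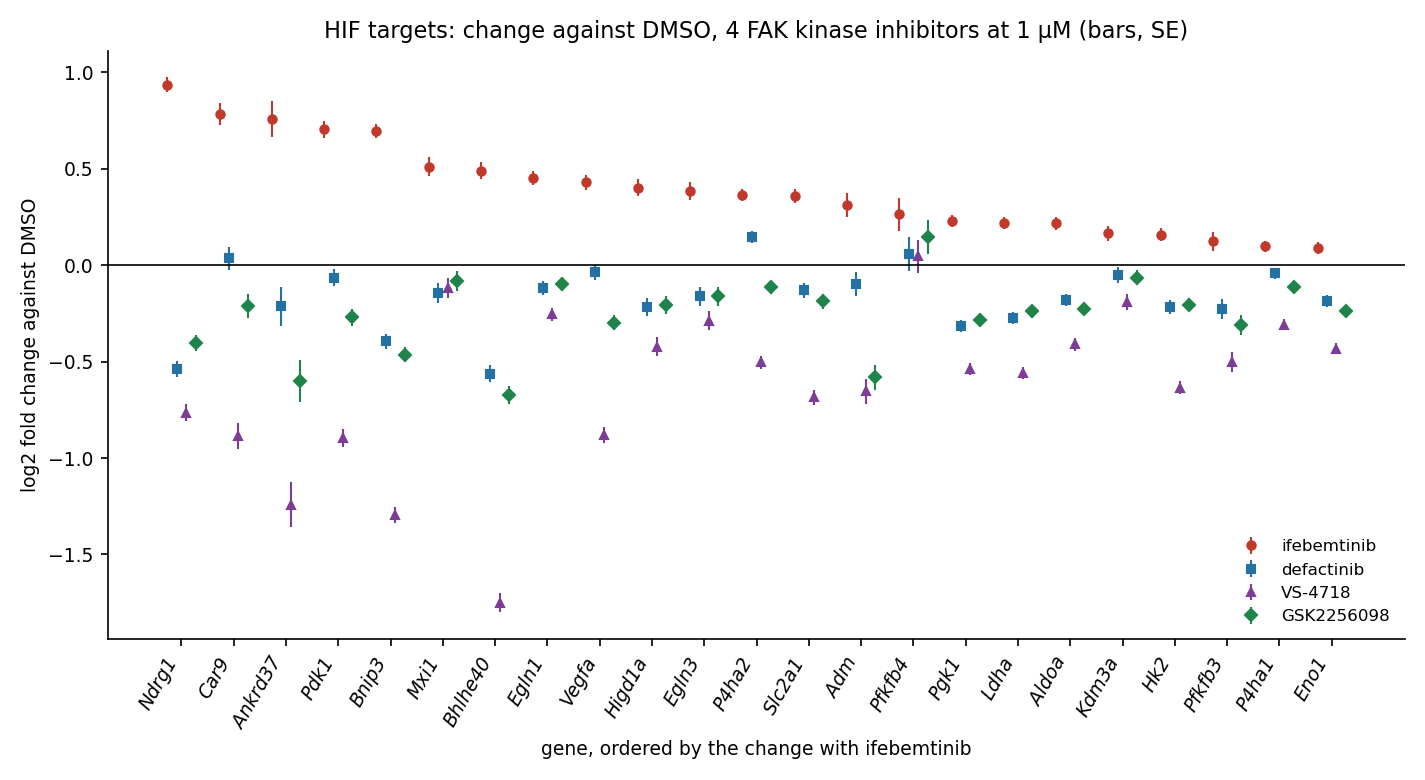
Log2 fold change against DMSO (vertical axis, ± SE) of each of the 23 HIF targets with ifebemtinib, defactinib, VS-4718 and GSK2256098, all compared with the same 3 DMSO libraries. The ifebemtinib points lie above 0, up to 0.93 for *Ndrg1*, and most points of the other inhibitors lie below it, down to −1.75 for *Bhlhe40* with VS-4718.

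The ATF4 response differed between the drugs as well. With ifebemtinib, 21 of 21 genes were higher than with VS-4718 and 19 higher than with GSK2256098, beside 19.6% and 9.78% of all genes, with median differences of 0.98 and 0.55. Against defactinib the list was split, with 10 higher and 5 lower (47.6% and 23.8%, beside 17.9% and 16.6% of all genes) and a median difference of 0.07. Without the 4 libraries that stood apart, 9 were higher and 2 lower than with defactinib, and 21 and 19 were higher than with VS-4718 and GSK2256098. Against DMSO, 20 of 21 were lower with VS-4718 (18.9% of all genes) and 20 with GSK2256098 (6.09%), whereas with defactinib 10 were higher (11.4%) and 7 lower (11.0%). *Chac1* had log2 fold changes against DMSO of 0.66 with ifebemtinib and −0.38, −2.83 and −1.02 with defactinib, VS-4718 and GSK2256098, and *Ddit4* 0.78 beside −0.53, −2.11 and −0.95. The direct differences between ifebemtinib and VS-4718 were 3.49 for *Chac1*, 3.20 for *Trib3*, 2.89 for *Ddit4* and 2.81 for *Slc7a11*.

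The 10 genes that were higher than with defactinib were *Ddit4*, *Ddit3*, *Chac1*, *Trib3* and *Nupr1*, by 1.31, 1.13, 1.04, 0.88 and 0.74 on the log2 scale, *Sesn2*, *Atf4* and *Vldlr*, by 0.32, 0.24 and 0.11, and the enzymes *Phgdh* of serine synthesis and *Mthfd2* of one-carbon metabolism, by 0.11 and 0.09. The 5 genes *Slc7a5*, *Pck2*, *Slc7a11*, *Slc3a2* and *Asns*, of amino acid transport and metabolism, were lower by 0.35, 0.33, 0.13, 0.09 and 0.09. *Psat1*, *Psph*, *Shmt2* and *Cebpb* did not pass, at −0.06, −0.05, −0.06 and −0.09, and neither did *Aldh1l2* and *Stc2*, at 0.07 (95% interval −0.02 to 0.16) and 0.03 (95% interval −0.07 to 0.13).

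**Figure D5:**
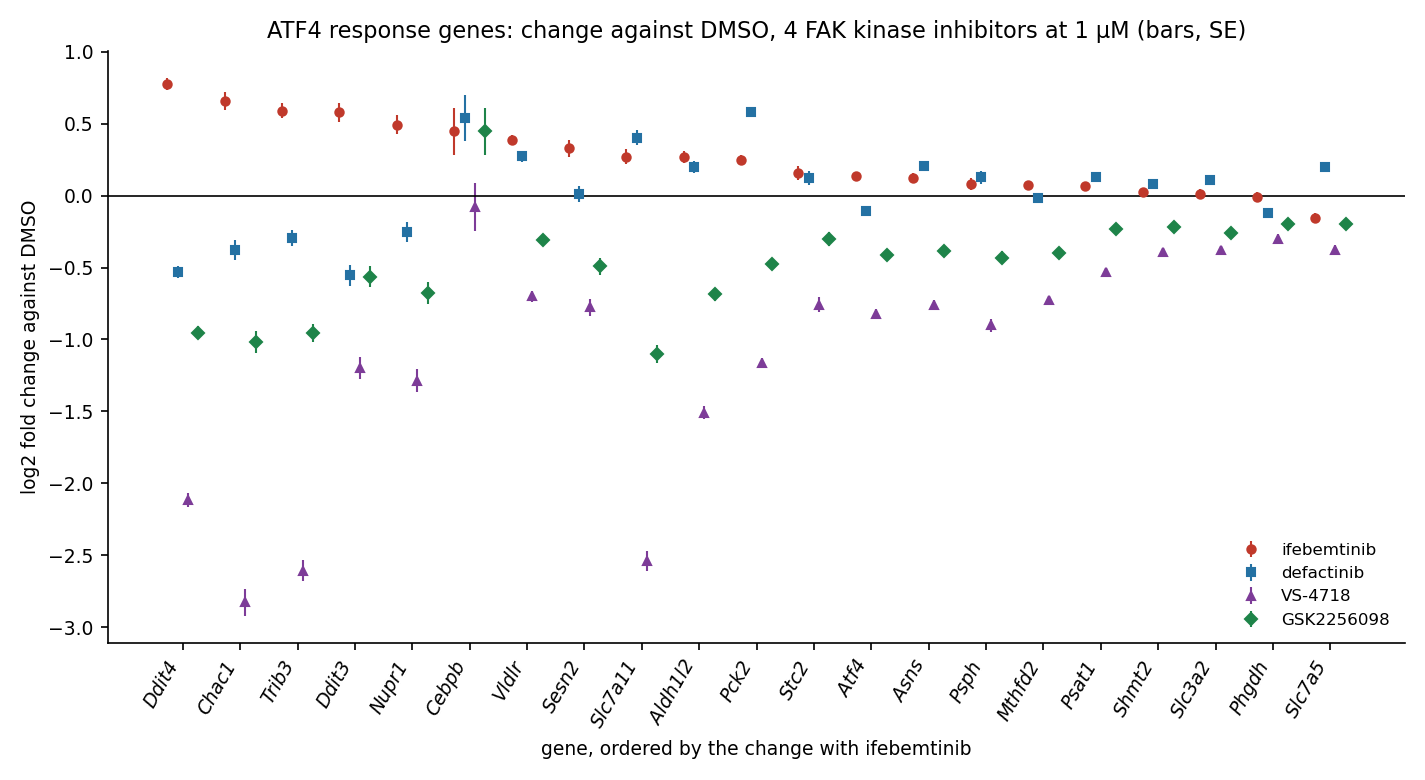
Log2 fold change against DMSO (vertical axis, ± SE) of each of the 21 genes of the ATF4 response with the 4 inhibitors, all compared with the same 3 DMSO libraries. With ifebemtinib *Ddit4*, *Chac1*, *Trib3* and *Ddit3* lie between 0.58 and 0.78 and *Psat1*, *Phgdh*, *Psph*, *Shmt2* and *Mthfd2* near 0, and with VS-4718 the values reach −2.83 for *Chac1*.

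Among adhesion and SC genes, those that differed were mostly lower. Of 16 integrins, 12 were lower with ifebemtinib than with defactinib, 8 lower than with VS-4718 and 7 lower than with GSK2256098, beside 16.6%, 21.3% and 11.2% of all genes, and of 21 matrix genes 17, 16 and 17 were lower. Against VS-4718, 1 integrin and 2 matrix genes were higher. *Thbs1*, at −0.28 against DMSO with ifebemtinib, stood at 0.44, 0.73 and 0.29 with defactinib, VS-4718 and GSK2256098, so that the direct differences were −0.71, −1.002 and −0.56. Of 17 SC markers, 11, 13 and 9 were lower with ifebemtinib than with these drugs. Against DMSO, 11, 12 and 10 of the 17 were higher with defactinib, VS-4718 and GSK2256098, beside 11.4%, 20.4% and 6.36% of all genes. *Ngfr*, the p75 neurotrophin receptor, had the largest decrease by rule against VS-4718 (−1.90) and *Erbb3*, the neuregulin receptor, a difference of −1.40 there. *Sox10* was lower than with each of the 3 inhibitors, by 0.38, 1.05 and 0.29 on the log2 scale. *Mbp* did not differ from defactinib (−0.08, 95% interval −0.21 to 0.05) or GSK2256098 (−0.04, 95% interval −0.17 to 0.10).

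Other genes at the top of these comparisons were *Mmp15*, *Itga8*, *Csn3* and *Gas7*, lower than with defactinib by 1.16, 1.05, 1.03 and 1.02 on the log2 scale, *Notch1* and *Pcdh10*, lower than with VS-4718 by 1.47 and 1.42, and *Aldh3a1*, *Ngfr*, *Notch1* and *C1qtnf1*, lower than with GSK2256098 by 1.35, 0.91, 0.91 and 0.90. Against DMSO, ifebemtinib left *Aldh3a1*, *Notch1* and *Ngfr* near their level, with log2 fold changes of 0.17, −0.16 and −0.14 that did not pass the test. *Cdkn1a* was higher than with defactinib, VS-4718 and GSK2256098 by 1.44, 1.77 and 1.39, and *Mettl7b* by 1.20, 1.62 and 1.29.

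*Met* was lower with ifebemtinib than with defactinib (−0.17, adjusted *P* = 6.2e-05) and GSK2256098 (−0.12, adjusted *P* = 0.0055). It did not differ from VS-4718, with a difference of 0.03 and a 95% interval of −0.04 to 0.10. Against DMSO, *Met* had log2 fold changes of −0.05, −0.25 and −0.10 with defactinib, VS-4718 and GSK2256098. *Ptk2* was lower against DMSO with those 3 inhibitors, at −0.14, −0.18 and −0.13, and it was higher with ifebemtinib than with VS-4718 by 0.11 (95% interval 0.03 to 0.18, adjusted *P* = 0.0146). The differences in *Ptk2* from defactinib and GSK2256098 did not pass, at 0.07 (95% interval −0.01 to 0.14) and 0.06 (95% interval −0.02 to 0.13).

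PROTAC FAK degrader 1, also at 1 μM, is given beside ifebemtinib because most HIF targets and ATF4 genes were above DMSO with it too. Of the 23 HIF targets 15 were higher and 3 lower with it, and of the 21 ATF4 genes 20 were higher, beside 34.1% of all genes higher and 32.7% lower. Without the 4 libraries that stood apart, 16 HIF targets were higher and 3 lower with it, and 20 ATF4 genes were higher, beside 32.7% of all genes higher and 31.0% lower. *Ndrg1* and *Ddit3* had log2 fold changes of 2.53 and 3.59 with the degrader, beside 0.93 and 0.58 with ifebemtinib, and *Slc2a1* 0.08 beside 0.36. The degrader was compared with DMSO only.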

How the data were processed

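RNA was sequenced from 24 libraries of MS03 cells after poly(A) selection, and the 3 ifebemtinib and 3 DMSO libraries were compared here. The authors deposited raw read counts per Ensembl gene, whole numbers without normalization, for 49315 genes. The submitters' processing notes name Trimmomatic 0.36, STAR 2.5.2b, featureCounts of Subread 1.5.2 and GRCm38, and the strand setting and annotation release are not given in the sources used here, so reads of overlapping genes, antisense genes and paralogs cannot be told apart. Coordinates were those of GENCODE M21 (49056 identifiers found, 174 without a symbol).

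The tests were run with edgeR 4.0.16 under R 4.3.3 (TMM, filterByExpr by group, glmQLFit and glmQLFTest, 8 groups, 16 residual degrees of freedom), two-sided, with Benjamini-Hochberg adjustment over 16070 genes and a threshold of 0.05. The SE of a log2 fold change is its absolute value over the root of its F statistic, and 95% intervals use the t distribution with 16 degrees of freedom. CPM were scaled by TMM. On simulated counts for the DMSO comparison, with 15378 genes tested, the fit recovered 77.9%, 86.4% and 100% of genes changed 1.25-, 1.5- and 2-fold, with 5 false calls. The simulation gave all genes the same dispersion and held no library that stood apart, so these figures need not hold for the real libraries.

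Genes named were the 12 largest increases and 12 largest decreases called at a mean of 5 CPM or more, with groups that did not overlap and a named symbol, up to 4 members per list with the lowest *P*, the 4 largest differences each way from each other inhibitor by the same rule, and *Ptk2*, *Nf2*, *Met* and *Sox10*. All members of the HIF and ATF4 lists were described. Further list members were named after their values were seen. The 30 lists (457 genes), the rules and the tests were chosen with earlier results of these data known, and 6 further lists after the values were seen. Alternatives were DESeq2 1.42.0, library totals alone, limma-trend (limma 3.58.1) on log2(CPM + 4), the scale of the authors' methods, no filter, only the libraries of the comparison, the replicate number as a block, each library left out in turn and, added after the data were seen, the 4 libraries with over 90 CPM of histone transcripts left out together. Tables and figures were made in Python 3.11.15 with pandas 2.3.3, scipy 1.17.1 and matplotlib 3.10.9. Some members of the lists are counted but not reported here by name.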

Additional observations from a re-analysis of the deposited data

Results flagged for a closer look

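Among 432 genes that were named by rule or belonged to one of the 30 lists, 29 passed the test in one direction with ifebemtinib and in the other direction with each of defactinib, VS-4718 and GSK2256098, all against the same DMSO libraries, and differed between ifebemtinib and each of the 3 drugs by edgeR's test of the difference itself. Of these, 24 were higher and 5 lower with ifebemtinib, and 17 belonged to the HIF or ATF4 list. The 432 include genes named for large changes with ifebemtinib or large differences from these drugs, and that choice can raise the count. The share over all genes tested is not given here, so the count describes the genes examined only. The smallest of the 3 direct log2 differences was 1.39 for *Cdkn1a*, 1.34 for *Ndrg1*, 1.31 for *Ddit4*, 1.20 for *Mettl7b*, 1.18 for *Atf3*, 1.13 for *Ddit3*, 1.09 for *Bnip3*, 1.05 for *Bhlhe40*, 1.04 for *Chac1*, 0.88 for *Trib3*, 0.88 for *Gadd45a*, 0.74 for *Nupr1*, 0.70 for *Ier3* and 0.61 for *Higd1a*. It was 0.54 for *Egln3*, 0.51 for *Pgk1*, 0.49 for *Slc2a1*, 0.46 for *Ldha*, 0.43 for *Dusp4*, 0.40 for *Aldoa*, 0.36 for *Hk2*, 0.28 for *Eno1*, 0.25 for *Lss* and 0.24 for *Atf4*. Among genes that were lower it was −0.56 for *Thbs1*, −0.33 for *Ccl2*, −0.32 for *Itga5*, −0.28 for *Tyro3* and −0.27 for *Flna*. No explanation was tested.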

How the results depend on the processing

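Of the 2136 genes called against DMSO, the count was 2156 with library totals alone, 1925 with no filter, 1993 with limma-trend on log2(CPM + 4), 1839 with DESeq2 and 2784 with only the 6 libraries of the comparison. The larger direction depended on the setting: 1035 were higher and 1101 lower in the main fit, 1197 and 959 with library totals alone, and 987 and 938 with no filter. Leaving out single libraries gave 1380 to 1824 genes in all, 616 to 956 higher and 725 to 869 lower, with fewer libraries in each fit. The replicate numbers did not pair the samples, since same-numbered ifebemtinib and DMSO libraries deviated with correlations of 0.031, 0.0108 and −0.0612, and with the replicate number as a block 2046 genes were called, 22 HIF targets and 13 genes of the ATF4 response among them. Over 12 alternatives and without the 4 libraries that stood apart, 19 to 22 HIF targets and 11 to 14 genes of the ATF4 response were higher. The log2 fold change ranged from 0.89 to 0.95 for *Ndrg1*, 0.74 to 0.81 for *Ddit4*, 0.64 to 0.83 for *Cdkn1a*, −0.39 to −0.35 for *Cyr61* and −0.24 to −0.22 for *Met*. Of 101 named genes called, 68 kept call and direction under each of the 12 alternatives, and none of the named genes was called in opposite directions by 2 settings. Depth limits genes of a few CPM, and 3 libraries a side cannot reach an exact permutation *P* under 0.1.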

Other observations

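These lists were chosen after their values were seen, so their counts describe the libraries and no more. Glycolysis and lactate export beyond the HIF list moved mostly the same way: of 15 genes, 12 were higher and 1 lower with ifebemtinib than with DMSO (beside 6.44% and 6.85% of all genes), with a median log2 fold change of 0.24, and without ifebemtinib replicate 2 the counts were again 12 and 1. *Eno2*, an enolase, had 78.1, 77.2 and 76.4 CPM with DMSO and 114, 116 and 115 CPM with ifebemtinib (log2 fold change 0.57 ± 0.034), and *Slc2a3*, a high-affinity glucose transporter, 66.4, 63.5 and 62.2 CPM beside 93.1, 93.6 and 93.4 CPM (0.54 ± 0.046). *Slc16a3*, which exports lactate, rose by 0.60 and *Slc16a1*, which carries it both ways, fell by 0.26 on the log2 scale. The ligase gene *Vhl* rose from 38.9, 35.2 and 35.5 CPM to 44.7, 46.5 and 47.2 CPM (0.34 ± 0.047, adjusted *P* = 2.54e-06), 1 of 2 of 10 oxygen-sensing genes that rose (20.0%).

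Of 13 mitochondrially encoded mRNAs, 6 fell (46.2%, beside 6.85% of all genes) and 7 did not pass, with *mt-Nd1* at 6499, 6544 and 6527 CPM with DMSO and 5215, 5486 and 5189.9 CPM with ifebemtinib (−0.30 ± 0.053, adjusted *P* = 0.000105). Of 90 tested nuclear genes of oxidative phosphorylation, 23 rose (25.6%, beside 6.44% of all genes) and 1, *Ndufaf4*, fell. Of 216 tested solute carriers, 40 fell (18.5%, beside 6.85% of all genes) and 11 rose (5.09%, below the 6.44% of all genes). Among those that fell were *Slc39a6*, a zinc importer, at −0.29, the folate carrier *Slc19a1* at −0.27 and the taurine transporter *Slc6a6* at −0.21. Without ifebemtinib replicate 2, 32 solute carriers fell and 11 rose. The median log2 fold change of 49 tested histone genes was 0.45, and it was −0.19 without that replicate, in which 50 were tested.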
